A study of Mus musculus with 16 samples.

Results

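Messenger RNA levels of the interleukin-1 receptor antagonist, 1 interleukin receptor, 3 cytokines and 5 chemokines were followed in mouse muscle cells that lacked the miR-206 family. The 10 genes were Il1rn, Il1r1, Il33, Il6, Lif, Ccl2, Ccl7, Cxcl1, Cxcl5 and Cxcl12, taken by gene name from a table of 35275 genes. They were picked with earlier results of the same data in view, in particular the low Il1rn of knockout cells in growth medium. Differences between genotypes in growth medium are therefore given as a description without a test for all 10 genes, and so are the stage changes of Il1rn, which share those libraries.

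The cells were C2C12, a mouse myoblast cell line in long use, whose cells join into multinucleate myotubes in low serum, and which the labels describe as PAX7 negative. Control cells were 2 wild-type populations. The knockout (tKO) was represented by 2 clones in which the microRNA genes miR-206 and both miR-1a copies (miR-1a-1, miR-1a-2) are knocked out. Each line was sampled while proliferating in growth medium with 20% fetal bovine serum (GM) and after 3 days in medium with 2% HS (DM3), each time as 1 library labelled BR1 and 1 labelled BR2. This gave 16 poly(A) RNA libraries in 4 groups of 4, which are called control GM, control DM3, tKO GM and tKO DM3. Each tKO line is a clone while the controls are populations, so the deletion and the choice of clone cannot be told apart beyond the agreement of those lines. The labels do not say whether BR1 and BR2 were separate cultures, and p-values measure only the spread between these samples, which may be technical. Levels of the deleted microRNAs were not analysed here, which leaves the genotype labels without a direct check.

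Interleukin-1 signals through the receptor encoded by Il1r1, and the antagonist encoded by Il1rn occupies that receptor without activating it. The receptor acts through MYD88 and the transcription factor NF-kB, which raises transcription of cytokines such as IL-6 and of chemokines that draw neutrophils (CXCL1 and CXCL5) or monocytes (CCL2 and CCL7). Muscle cells make several of these proteins themselves, and IL-6 and LIF act on myoblasts through receptors that share the subunit gp130.

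The deleted microRNAs carry a common seed, the stretch that pairs with sites in the 3′ ends of messenger RNAs. The mature sequence of miR-206 (chr1:20679055-20679076, plus strand, GRCm38.p6, from RefSeq) is shown with its seed, bases 2 to 8, in capitals, because it defines the sites searched for in the 10 genes. The mature sequence of miR-1a is not shown.
miR-206-3p: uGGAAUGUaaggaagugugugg
The longest annotated 3′ UTR of each gene (275 to 5188 bases, GENCODE) was searched for ACATTCCA, the match to the seed followed by A, and for the shorter matches ACATTCC and CATTCCA. None of the 10 genes held ACATTCCA, which occurred in 4.46% of the 10806 tested genes with a 3′ UTR. Il6 was the only one of the 10 with ACATTCC, which 11.6% of tested genes held, and none held CATTCCA, which 13% held. The site in Il6 starts at base 1266 of 1668 and is shown in capitals within 30 bases of the transcript, because it is the only seed match among the 10 genes.
Il6 3′ UTR site: tcagtttgtggACATTCCtcactgtggtca
Il1rn, whose levels differed most between genotypes in GM, held none of the 3 matches in its 1864 bases.

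Promoters (250 bases before to 50 bases after each start, RefSeq, GRCm38.p6) were searched on both strands for the NF-kB (kappa-B) motif, GGGA and TTCC with any 2 bases between, and for TGANTCA, the AP-1 motif. There were 11 promoters for 7 of the genes, 3 of them for Il1rn, and none for Ccl2, Ccl7 and Cxcl5. The kappa-B motif occurred in 1.47% of 32851 promoters, and in 2 of the 11, those of Il6 and Cxcl1. The AP-1 motif occurred in 7.81% of promoters, and in 3 of the 11. These were the promoters of Il6 and Lif and 1 of the 3 promoters of Il1rn. The windows below are shown because Il6 and Cxcl1 are the genes of the set with a kappa-B match, and Il1rn is the gene that differed most, with each motif in capitals.
Il6, kappa-B, 44 bases before the start (promoter chr5:30012864-30013163, plus strand): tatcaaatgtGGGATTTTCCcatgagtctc
Cxcl1, kappa-B, 71 bases before the start (promoter chr5:90890995-90891294, plus strand): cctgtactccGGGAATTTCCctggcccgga
Il1rn, AP-1, 141 bases before the start (promoter chr2:24336610-24336909, plus strand): tctgctagacTGAGTCAcgcctctggaagc
A match is a run of letters and was not tested as a binding site.

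The libraries held 22642563 to 56585952 fragments, and values are FPKM (fragments corrected for gene length in kilobases and for library size), so that genes can be set side by side. A floor of 3 fragments corresponds to 0.053 to 0.132 FPKM for a gene of 1 kilobase, for counting error only. Where values of a group follow each other below without a name, they are line 1 BR1, line 2 BR1, line 1 BR2 and line 2 BR2, and means carry the SD over 4 libraries. All 10 genes had a mean of at least 0.5 FPKM and were among the 11832 genes tested. The summed level of 16 listed muscle markers was 64.6 to 143 FPKM in the GM libraries and 505 to 1477 in those of DM3. Not every defining marker was present in GM. Myod1, which marks myoblasts, was at 0 fragments in each library of control GM and at 3 or fewer in tKO GM, and Myog, which marks differentiation, had at most 5 in GM. The myoblast markers Myf5 (11.5 to 20.6 FPKM), Des (9.22 to 47.8) and Cdh15 (8.15 to 40.3) were present in all GM libraries. In DM3 Myod1 had 44 to 288 fragments and Myog 112 to 981. Leukocytes are a common source of these cytokines. Their defining markers Ptprc, Emr1 and Itgam did not exceed 10 fragments in any library, while Csf1r reached 47 and Cd68 ran from 24 to 249. The summed level of 14 leukocyte markers lay between 12.96 and 16.2 FPKM in control GM, between 13.3 and 20.2 in tKO GM, between 7.48 and 11.8 in control DM3 and between 8.60 and 24.1 in tKO DM3. Much of that sum was Cd14 (5.33 to 14.5 FPKM), Lyz2 (0.422 to 5.38) and Cd68 (0.658 to 3.98), and Cd14 was 10.9 to 11.7 FPKM in control GM and 9.70 to 13.01 in tKO GM. Endothelial markers summed to at most 0.916 FPKM. The summed level of 10 fibroblast markers lay between 881 and 1286 FPKM in control GM, between 442 and 959 in tKO GM, between 2303 and 2976 in control DM3 and between 2144 and 3194 in tKO DM3. Of 6 fibroblast markers tested, 1 was lower in tKO cells in GM (Pdgfra) and 1 in DM3 (Dcn). Over all tested genes 2.06% passed in GM and 3.38% in DM3. The part of these markers in the results was not tested.

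Il1rn (ENSMUSG00000026981, chr2:24336853-24351494, plus strand) stood at 12.8 and 9.69 FPKM in control population 1 (BR1 and BR2) and at 18.6 and 9.001 in population 2 in GM. In tKO GM it stood at 0.164 and 0.411 FPKM in clone 1 and 0.812 and 0.722 in clone 2. Every tKO library was below every control library. The means were 12.5 ± 4.40 and 0.527 ± 0.297 FPKM (SD, n = 4 each), 23.8-fold lower in tKO, and 596 to 1556 fragments in control libraries compare with 12 to 63 in tKO. These are the values for which the gene was picked. In bulk RNA, fewer cells that make a transcript and less RNA per cell cannot be told apart.

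In DM3, Il1rn was low in controls too, at 0.508, 0.775, 1.53 and 1.86 FPKM (mean 1.17 ± 0.633), a 10.7-fold lower mean than in control GM. In tKO DM3 it stood at 0.113, 0.160, 0.126 and 0.403 FPKM (mean 0.201 ± 0.136), from 9 to 31 fragments. All 4 tKO libraries again lay below all 4 control libraries, and the mean was 5.82-fold lower. On the log2(FPKM + 1) scale, which understates changes of low genes, the DM3 difference was -0.81 (SE 0.23, adjusted p = 0.0651), which did not pass the threshold of 0.05. With a pseudocount of 0.1 the difference was -2.02 with an adjusted p of 0.0189, and over all alternatives the adjusted p ran from 0.0189 to 0.421. The difference passed in only 6 of 31 alternatives. It passed without population 2 BR1 of control GM (adjusted p = 0.043) and without population 1 BR1 of control DM3 (0.044). It also passed with TPM (0.0361) and with median-of-ratios scaling (0.0432). The control cells changed by -2.64 with differentiation and the tKO cells by -0.33. A pseudocount of 0.1 made these -3.41 and -0.999, and with voom on the fragments -3.51 and -1.33.

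Il1r1 (ENSMUSG00000026072, chr1:40225080-40316198), the signalling receptor for interleukin-1, overlapped between genotypes in GM and was higher in tKO cells in DM3. In GM it ranged from 3.81 to 5.83 FPKM in control and from 3.66 to 6.84 in tKO libraries, and the groups overlapped. In DM3 it stood at 1.39, 1.36, 2.04 and 2.15 FPKM in controls and at 4.30, 2.57, 5.03 and 3.51 in tKO libraries. All 4 tKO libraries exceeded all 4 controls, with means of 3.85 ± 1.06 and 1.73 ± 0.419 FPKM (SD, n = 4 each), 2.22-fold higher. The difference was 0.81 on the log2 scale (SE 0.19, adjusted p = 0.0259), and it was 0.87 within BR1 and 0.75 within BR2. Il1r1 fell with differentiation in control cells (-1.08, SE 0.19, adjusted p = 0.000134), while in tKO cells the change was -0.22 (adjusted p = 0.338). The difference between those changes was 0.86 (SE 0.27, unadjusted p = 0.00566), and its adjusted p of 0.243 did not pass. The DM3 call was lost without population 1 BR1 (adjusted p = 0.0862), population 2 BR1 (0.0826) or population 1 BR2 (0.051) of control DM3, or without clone 1 BR2 of tKO DM3 (0.0887). Fitted on the 8 DM3 libraries alone its adjusted p was 0.0947, and over all alternatives it ran from 0.00923 to 0.484.

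The ratio of antagonist to receptor transcript, Il1rn to Il1r1 in FPKM, describes both genes together. It ran from 1.54 to 4.90 in control GM, from 0.366 to 0.865 in control DM3, from 0.0239 to 0.197 in tKO GM and from 0.0251 to 0.115 in tKO DM3. The antagonist transcript exceeded its receptor transcript in control GM libraries and in no library of the other groups. Il1r1 overlapped between genotypes in GM, so the GM ratios restate the Il1rn values for which that gene was picked. Among the ligands of this receptor, Il1a did not exceed 25 fragments and Il1b did not exceed 7 in any library. These ligands, like other genes described below as at or near 0, were named after their values were seen.

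Il33 (ENSMUSG00000024810, chr19:29925114-29960718), a nuclear cytokine of the interleukin-1 family released from damaged cells, rose with differentiation in controls and was lower in tKO than in control cells in DM3. In control cells it stood at 10.2, 14.3, 9.78 and 9.88 FPKM in GM and at 21.1, 29.8, 44.2 and 54.3 in DM3. Every DM3 library exceeded every GM library, and the change was 1.60 on the log2 scale (SE 0.56, adjusted p = 0.0198). That call was lost without population 2 BR2 of control DM3 (1.40, adjusted p = 0.0587), with line averages (0.0898) and without population 1 (0.151) or population 2 (0.186), and population 2 BR1 stood above the other control GM libraries. In tKO cells the 2 clones went apart. Clone 1 had 2.11 and 5.03 FPKM in GM and 2.98 and 1.60 in DM3, whereas clone 2 had 6.04 and 7.04 in GM and 12.03 and 27.1 in DM3. The change with differentiation in tKO cells as a group was 0.46 (SE 0.56, adjusted p = 0.495), and the difference from the control change did not pass the test (adjusted p = 0.619). Without clone 1 it was 1.35 (adjusted p = 0.0165), and without clone 2 it was -0.43 (adjusted p = 0.39).

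In DM3 the mean of Il33 was 37.3 ± 14.8 FPKM in control and 10.9 ± 11.7 in tKO libraries (SD, n = 4 each), 3.42-fold lower. The log2 difference was -2.20 (SE 0.56, adjusted p = 0.0372). The pooled groups overlapped, since clone 2 BR2 lay above population 1 BR1 of the controls. Both tKO libraries were below both controls within BR1 (-1.86) and within BR2 (-2.55). Without clone 1 the difference was -0.92 (adjusted p = 0.184). Among the DM3 libraries the call was lost without population 2 BR1 (adjusted p = 0.072), population 1 BR2 (0.116), population 2 BR2 (0.0985), clone 1 BR1 (0.0671) or clone 1 BR2 (0.122). It was also just above the threshold without any single control GM library (0.0515 to 0.0527), which enter through the shared estimate of spread. In GM the tKO libraries (mean 5.06 ± 2.13 FPKM) all lay below the controls (11.02 ± 2.16), given as a description.

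**Figure D1:**
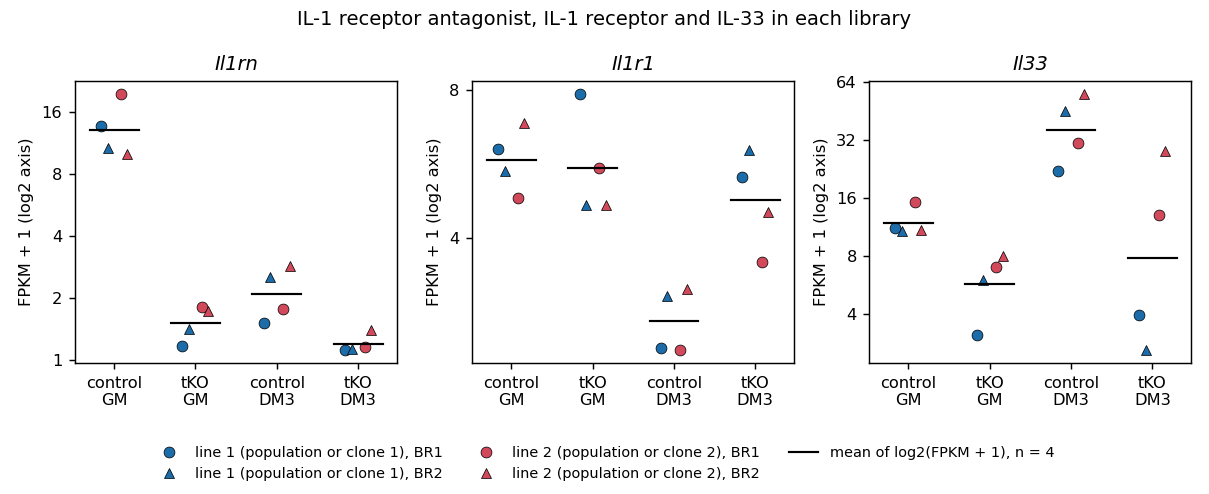
Level of Il1rn, Il1r1 and Il33 in each of the 16 libraries, as FPKM + 1 on a log2 axis. Colour marks the line (population or clone 1 in blue, 2 in red), circles are BR1, triangles are BR2, and the bar is the group's mean of log2(FPKM + 1) over 4 libraries. Il1rn is high only in control GM (9.001 to 18.6 FPKM), Il1r1 is low only in control DM3 (1.36 to 2.15 FPKM), and Il33 of clone 1 stays at 5.03 FPKM or below at both stages.

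Il6 (ENSMUSG00000025746, chr5:30013161-30019968) encodes a cytokine that contracting and regenerating muscle releases. It was the scarcest of the 10 genes in GM, at 0.237, 0.491, 0.407 and 0.565 FPKM in control GM and 0.0310, 0, 0.284 and 0.418 in tKO GM, from 0 to 20 fragments per library. In DM3 it stood at 0.964, 0.838, 2.73 and 1.28 FPKM in controls and 1.00, 0.398, 0.384 and 0.768 in tKO libraries, from 12 to 168 fragments. Every control DM3 library exceeded every control GM library, and Il6 rose by 0.73 on the log2 scale (SE 0.20, adjusted p = 0.00516). Its mean of 0.675 FPKM passed the filter of 0.5 through control DM3 (1.45 FPKM). Means were 0.425 in control GM, 0.183 in tKO GM and 0.638 in tKO DM3. The test therefore leans on the group that let the gene in. Without a filter the rise still passed, and it was lost without control population 1 (0.42, adjusted p = 0.196). In tKO cells the change was 0.47 (adjusted p = 0.0558), and it passed in 11 of 31 alternatives. Among these were a pseudocount of 0.1 (adjusted p = 0.0123), TPM (0.024), median-of-ratios scaling (0.0448), voom on the fragments (0.0135) and line averages (0.039). It also passed without control population 1 (0.036) or population 1 BR2 of control DM3 (0.0181). The same held without clone 2 BR1 (0.0472) or clone 1 BR2 (0.0421) of tKO DM3, or clone 2 BR2 of tKO GM (0.0373). The genotypes in DM3 overlapped and differed by -0.54 (SE 0.20, adjusted p = 0.179). In GM the control libraries held 9 to 20 fragments and the tKO libraries 0 to 14.

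Lif (ENSMUSG00000034394, chr11:4257557-4272514), leukemia inhibitory factor, a cytokine of the IL-6 family that promotes myoblast proliferation, rose with differentiation in both genotypes. It stood at 1.44, 1.35, 1.21 and 1.24 FPKM in control GM and at 2.11, 2.86, 2.15 and 3.34 in control DM3, a change of 0.63 (SE 0.20, adjusted p = 0.0121). In tKO cells it stood at 0.528, 1.496, 0.834 and 2.08 FPKM in GM and at 2.27, 2.80, 1.45 and 3.02 in DM3, a change of 0.63 (SE 0.20, adjusted p = 0.0131). The control libraries of the 2 stages did not overlap, while the tKO libraries did, and clone 2 lay above clone 1 at each stage and BR number. The control call was lost with line averages (adjusted p = 0.0742) and without population 1 (0.0555) or population 2 (0.295). The tKO call was lost without clone 1 BR1 of tKO GM (0.46, adjusted p = 0.0548), with only the compared libraries (0.0549) and with line averages (0.0779). Between genotypes in DM3 the difference was -0.11 (SE 0.20, adjusted p = 0.847).

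Ccl2 (ENSMUSG00000035385, chr11:82035571-82037453) and Ccl7 (ENSMUSG00000035373, chr11:82045712-82047525) are neighbouring genes for monocyte-attracting CC chemokines, and both fell with differentiation in both genotypes. Ccl2 stood at 120, 175, 178 and 218 FPKM in control GM and at 3.18, 3.35, 13.9 and 13.1 in control DM3, a mean 20.6-fold lower. In tKO cells it stood at 82.6, 146, 107 and 180 FPKM in GM and at 15.5, 3.72, 13.4 and 12.5 in DM3, a mean 11.4-fold lower. Every DM3 library of Ccl2 was below every GM library of its genotype, and clone 2 BR1 stood apart from the other tKO DM3 libraries. The log2 changes were -4.44 in control (SE 0.45, adjusted p = 5.08e-07) and -3.49 in tKO cells (adjusted p = 5.82e-06). Between genotypes in DM3 it differed by 0.50 (SE 0.45, adjusted p = 0.625). Gm17268 overlaps Ccl2 on the other strand in GENCODE, and whether counting used the strand is not given in the sources used here.

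Ccl7 fell less, from 146, 193, 192 and 225 FPKM in control GM to 46.5, 45.7, 114 and 64.1 in control DM3. In tKO cells it went from 87.6, 153, 82.0 and 161 FPKM to 55.8, 31.6, 31.1 and 53.1. The stages did not overlap in either genotype, and the changes were -1.56 in control (SE 0.30, adjusted p = 0.000256) and -1.46 in tKO cells (adjusted p = 0.000453). In controls the 2 neighbours thus stood near each other in GM (means 173 ± 40.3 and 189 ± 32.6 FPKM, SD, n = 4) and apart in DM3 (8.37 ± 5.90 and 67.5 ± 32.0). Between genotypes in DM3 the groups overlapped, and Ccl7 differed by -0.59 (SE 0.30, adjusted p = 0.326).

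Cxcl5 (ENSMUSG00000029371, chr5:90759299-90761625), a neutrophil-attracting chemokine, was the most abundant of the 10 transcripts in GM. It stood at 371, 418, 709 and 1012 FPKM in control GM and at 28.6, 25.9, 70.3 and 93.2 in control DM3, a mean 11.5-fold lower. In tKO cells it stood at 230, 560, 284 and 690 FPKM in GM and at 25.7, 24.5, 67.2 and 76.0 in DM3, a mean 9.12-fold lower. The stages were far apart in both genotypes, and the changes were -3.59 (SE 0.49, adjusted p = 1.26e-05) and -3.20 (adjusted p = 3.8e-05). The genotypes lay over each other in DM3 (-0.15, SE 0.49, adjusted p = 0.919).

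Cxcl1 (ENSMUSG00000029380, chr5:90891241-90893115), another neutrophil attractant, was the one of the 5 chemokines that did not pass for differentiation in either genotype in the fit reported. In GM it stood at 69.4, 80.8, 95.5 and 112 FPKM in control and at 56.4, 59.5, 64.1 and 78.5 in tKO libraries. In DM3 it ran from 10.6 and 17.7 (BR1) to 132 and 77.3 (BR2) in control libraries, and in tKO libraries it was 90.8 and 17.5 (BR1) and 29.1 and 55.0 (BR2). The DM3 values thus spread over more than the range of GM in both directions. The changes with differentiation were -1.20 in control (SE 0.61, adjusted p = 0.0983) and -0.66 in tKO cells (adjusted p = 0.365). Without population 1 BR2 of control DM3, the highest library, the control change was -1.79 (adjusted p = 0.0112). With line averages both changes passed (adjusted p = 0.00235 in control and 0.0312 in tKO cells). The genotype difference in DM3 was 0.087 (SE 0.61, adjusted p = 0.963), made of 1.49 within BR1 and -1.32 within BR2. It changed sign when any 1 of 4 libraries was left out, and no direction is given.

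Cxcl12 (ENSMUSG00000061353, chr6:117168535-117181367), which guides progenitor cells through the receptor CXCR4, was even across control GM libraries and fell with differentiation. It stood at 37.1, 35.0, 34.4 and 35.9 FPKM in control GM and at 5.65, 5.24, 10.1 and 9.36 in control DM3, a mean 4.69-fold lower (-2.14, SE 0.26, adjusted p = 3.86e-06). In tKO cells it stood at 31.7, 26.0, 23.2 and 13.2 FPKM in GM and at 6.77, 3.58, 9.65 and 6.45 in DM3 (-1.69, adjusted p = 4.04e-05). The stages did not overlap in either genotype. All 4 tKO libraries lay below the controls in GM, given as a description, and the genotypes overlapped in DM3 (-0.19, SE 0.26, adjusted p = 0.773).

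**Figure D2:**
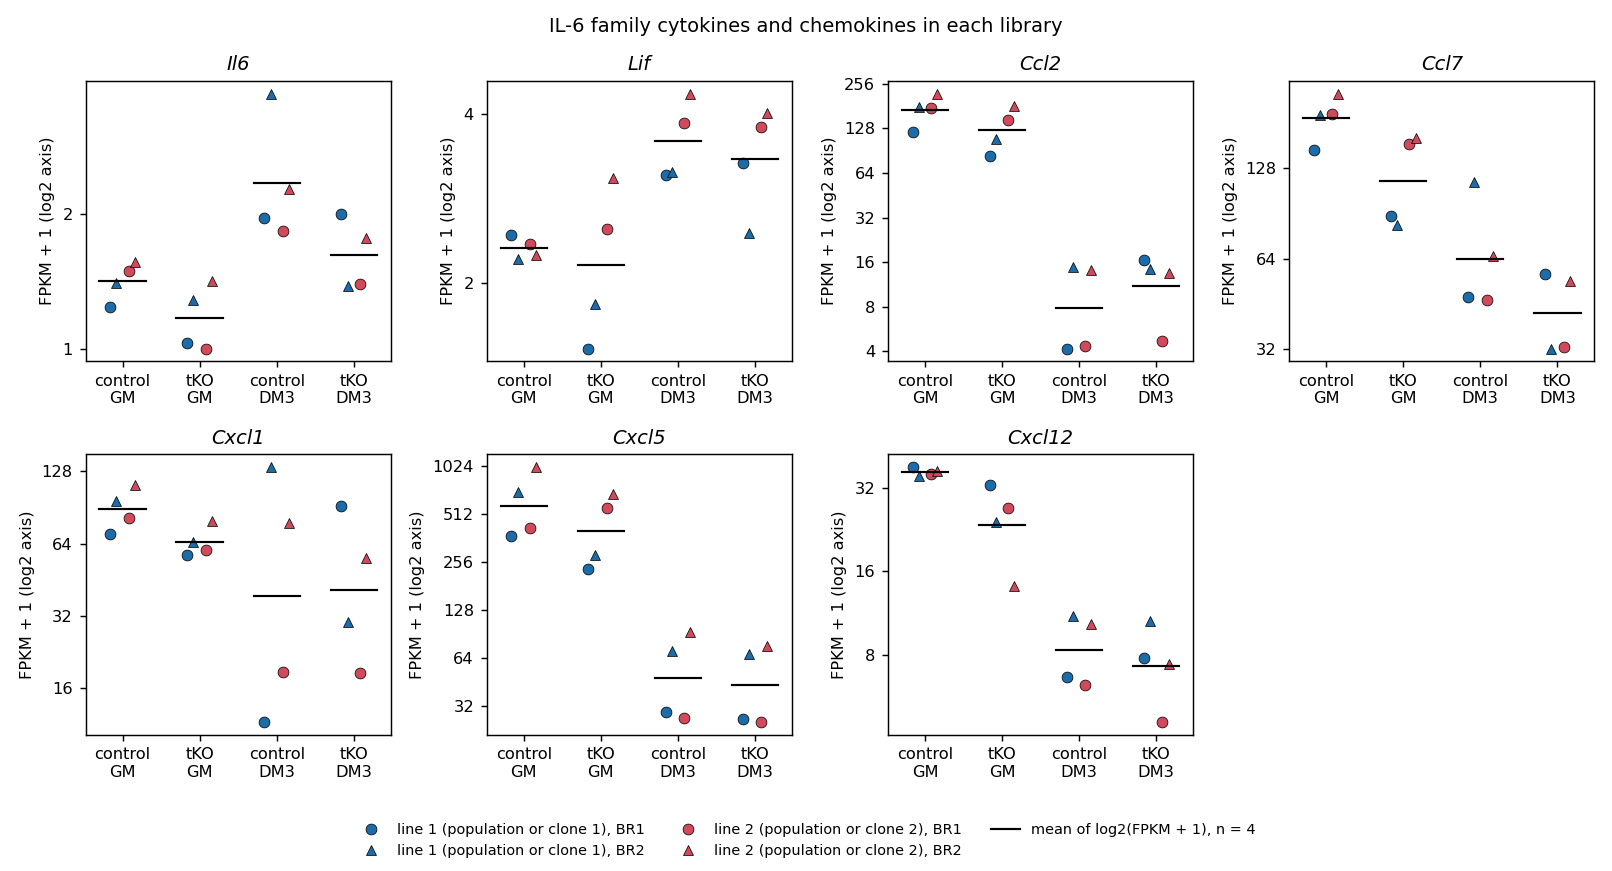
Level of Il6, Lif, Ccl2, Ccl7, Cxcl1, Cxcl5 and Cxcl12 in each library, as FPKM + 1 on a log2 axis. Colour marks the line, circles are BR1, triangles are BR2, and the bar is the group's mean of log2(FPKM + 1) over 4 libraries. Ccl2, Ccl7, Cxcl5 and Cxcl12 are lower in DM3 than in GM in every library of a genotype, while Cxcl1 spreads from 10.6 to 132 FPKM in control DM3.

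Set side by side, the genotype difference of the 10 genes in GM was below 0 for each of them, from -0.049 for Il1r1 to -3.12 for Il1rn, with a median of -0.49 against -0.012 over all tested genes. No count of calls is given for them there, and 2.06% of all tested genes passed the threshold in that comparison. Il1rn, Il33 and Cxcl12 had all tKO libraries below all controls in GM, where 8.62% of tested genes did. As the GM contrast chose the genes, nothing is read from these counts.

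In DM3, 2 of the 10 genes passed the test between genotypes, Il1r1 upward and Il33 downward, where 3.38% of tested genes passed (2.02% higher, 1.36% lower). Il1r1 and Il1rn had groups that did not overlap, as in 8.52% of tested genes. At an unadjusted p under 0.05 there were 4 of the 10, and 16.8% of all tested genes. The 10 genes had a median log2 difference of -0.17, and all tested genes one of 0.0077. None of the 10 passed in limma when the 8 DM3 libraries were fitted alone, when lines were averaged or when 1 control population or clone 1 was left out.

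Differentiation changed 8 of the 9 genes other than Il1rn in control cells, with Il33, Il6 and Lif rising and Il1r1, Ccl2, Ccl7, Cxcl5 and Cxcl12 falling. Il6 passed the filter through control DM3, the group it rose into, so its place in the control counts of this paragraph leans on the filter. Of all tested genes 61.5% passed, 23.2% higher and 38.3% lower, so that a call by itself was common. In tKO cells 5 of the 9 changed, Lif upward and Ccl2, Ccl7, Cxcl5 and Cxcl12 downward, where 60.9% of tested genes passed (24.9% higher, 36% lower). The stages did not overlap for 8 of these 9 genes in control cells, where 64.4% of tested genes did not, and for 4 of the 9 in tKO cells, where 49.1% did not. Without control population 1 or 2 the control count was 5. All-gene medians were -0.15 in control and -0.12 in tKO cells, and with median-of-ratios scaling they were 0.012 and 0.0083. Under that scaling the same 8 genes passed in control cells, and the split of all control calls went from 2743 higher and 4529 lower to 3619 and 3619.

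None of the 9 genes had a differentiation change that differed between the genotypes at an adjusted p under 0.05 in limma, nor with voom. At an unadjusted p under 0.05 there was 1 of the 9, Il1r1, and 10.8% of all tested genes, while 0.254% of all tested genes passed with adjustment. The calls for Il33, Il6 and Il1r1 in control but not tKO cells are therefore not shown to differ between genotypes.

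**Figure D3:**
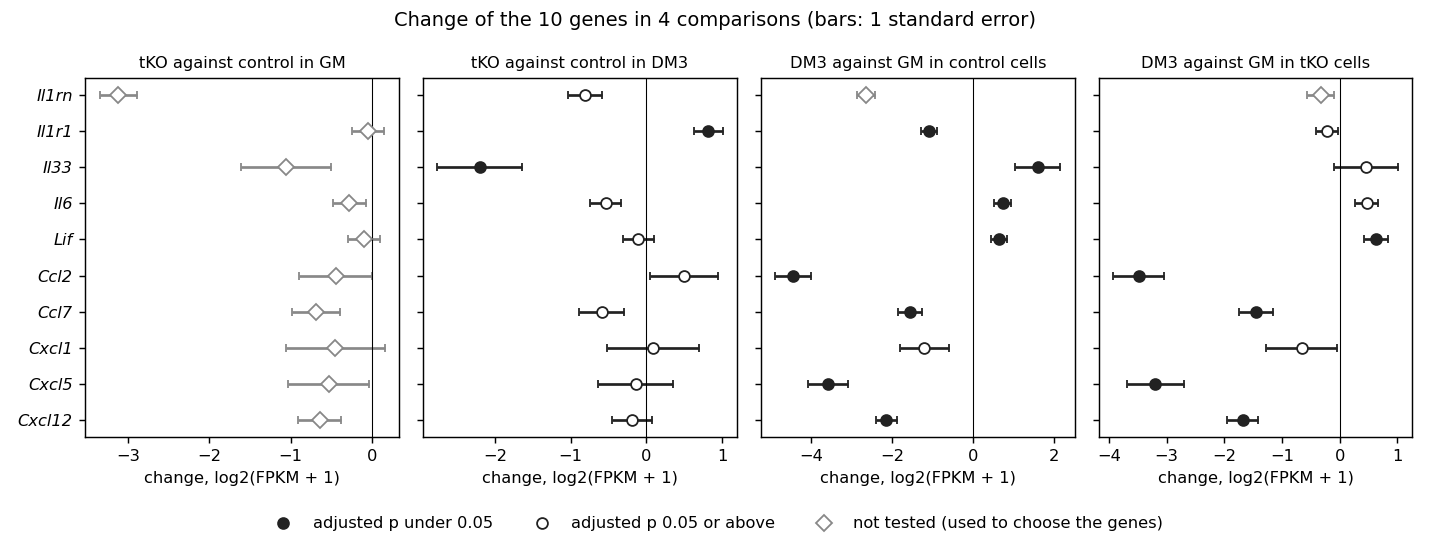
Change of each of the 10 genes on the log2(FPKM + 1) scale in 4 comparisons, with 1 standard error to each side, n = 4 libraries a group. Filled circles passed an adjusted p of 0.05, open circles did not, and grey diamonds were not tested because the genes were picked on those libraries. In DM3 Il1r1 lies at 0.81 and Il33 at -2.20, and Ccl2 and Cxcl5 have the lowest values in both differentiation panels.

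The BR number moved with the DM3 levels of Cxcl5, Ccl2, Cxcl1 and Cxcl12, while Ccl7 did not pass (0.42, adjusted p = 0.355). This comparison was added after the values were seen. In DM3, 4 of the 10 genes were higher in BR2 than in BR1 libraries, where 12% of tested genes passed and 9.06% were higher in BR2. Cxcl5 differed by 1.505 (SE 0.29, adjusted p = 0.0127), and both genotypes followed it, from 24.5 to 28.6 FPKM in BR1 to 67.2 to 93.2 in BR2. Ccl2 differed by 1.21 (adjusted p = 0.0362), with clone 1 alone going the other way (15.5 and 13.4 FPKM). Cxcl1 differed by 1.40 (adjusted p = 0.0454), again with clone 1 going the other way, and Cxcl12 by 0.66 (adjusted p = 0.0459). In GM none of the 10 passed this comparison in limma or voom, where 3.41% of tested genes passed. At an unadjusted p under 0.05 there was 1 of the 10, and 17.2% of all tested genes. Of 22 alternatives for DM3, Cxcl5 passed in 20, Ccl2 in 9, Cxcl12 in 8 and Cxcl1 in 6. The counts rest on few libraries. They went to 0 without population 2 BR1 or population 2 BR2 of control DM3, to 1 or 2 without any of 10 other libraries of either stage, and to 1 (Cxcl5) with median-of-ratios scaling. What the BR number stands for is not given in the sources used here.

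**Figure D4:**
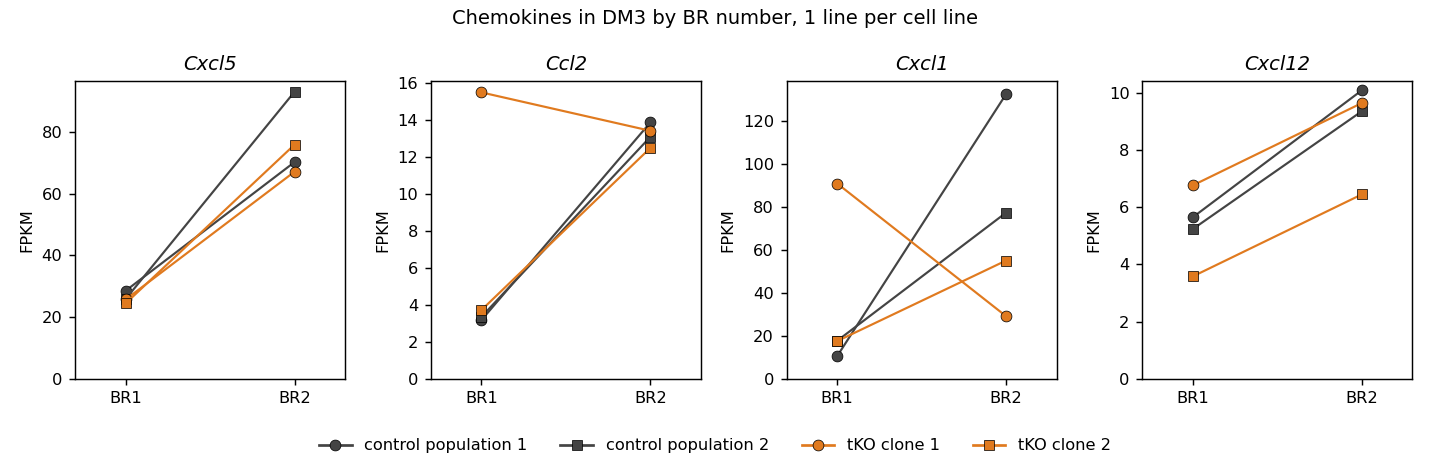
FPKM of Cxcl5, Ccl2, Cxcl1 and Cxcl12 in the 8 DM3 libraries, on a linear axis from 0, with a line joining the BR1 and BR2 library of each cell line. Grey marks control populations and orange tKO clones. Cxcl5 lies at 24.5 to 28.6 FPKM in BR1 and 67.2 to 93.2 in BR2 in all 4 lines, whereas Ccl2 and Cxcl1 of tKO clone 1 go down from BR1 to BR2.

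Between the 2 tKO clones, averaged over stages, Il33 was 1.69 higher in clone 2 (SE 0.32, adjusted p = 0.0112) and Lif 0.60 higher (SE 0.13, adjusted p = 0.0239). These were 2 of the 10 genes, where 5.41% of tested genes passed and 3.16% were higher in clone 2. The Lif call was lost without clone 1 BR1 (adjusted p = 0.0721) or clone 2 BR2 (0.0835) of tKO GM, or without clone 2 BR1 (0.0634) or clone 2 BR2 (0.0797) of tKO DM3. Fitted on the tKO libraries alone, neither passed (adjusted p of 0.0511 for Il33 and 0.154 for Lif). Il1rn differed by 0.33 between the clones (SE 0.24, adjusted p = 0.47), both of which were low. Clone 2 lay above clone 1 at each stage and BR number. Over the alternatives the difference ran from 0.256 to 1.32, and none passed (lowest adjusted p = 0.186). Between the control populations none of the 10 genes passed in limma or voom, where 0% of tested genes passed in limma. None had an unadjusted p under 0.05, where 0.355% of all tested genes did, so these counts are not particular to the 10 genes.

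Among the receptors for these ligands, Lifr and Cxcr4 were lower in tKO cells. Of 15 tested genes of the IL-6 receptor and JAK-STAT list, none passed upward and 1 downward in DM3, and 3 passed downward in GM. Over all tested genes 3.38% passed in DM3 and 2.06% in GM. The lists were chosen with earlier results of these data known. Fits that leave out libraries or lines are not given for the genes of this paragraph. Lifr, the LIF receptor, went from 11.7 ± 4.34 to 2.80 ± 1.70 FPKM in DM3 (-1.81, SE 0.28, adjusted p = 0.00134) and from 4.85 ± 0.843 to 0.849 ± 0.158 in GM (-1.65, adjusted p = 0.00477). Il6st, which encodes gp130, and Stat3, the factor downstream of it, were lower in GM (-0.54, adjusted p = 0.0108 and -0.59, adjusted p = 0.0023). So the ligand Lif overlapped between genotypes at both stages while its receptor did not. Cxcr4, the CXCL12 receptor, was 1 of 2 chemokine receptors tested and was lower in tKO cells in DM3 (from 4.198 ± 2.11 to 1.21 ± 0.348 FPKM, -1.15, SE 0.22, adjusted p = 0.00669) and in GM (-1.04, adjusted p = 0.0208). The other gene tested was Ackr3, a second receptor for CXCL12, which did not pass at either stage and whose genotypes overlapped (3.63 to 7.02 FPKM in control DM3, 1.94 to 6.17 in tKO DM3). Of receptors for the other chemokines, Ccr1 did not exceed 8 fragments in any library and Ccr2 and Cxcr2 did not exceed 4.

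In the list of interleukin-1 family receptors and their proximal signalling, none of 16 other tested genes passed in DM3 in limma or voom (5 at an unadjusted p under 0.05). In GM 1 of the 16, Il18rap, was lower in tKO cells (-0.53, adjusted p = 0.0408), where 2.06% of all tested genes passed. With differentiation 8 of the 16 fell and 2 rose in control cells, where 38.3% of all tested genes fell and 23.2% rose. In tKO cells 5 fell and 2 rose, where 36% and 24.9% of all tested genes did. Il1rl1, the receptor for IL-33, went from 1.17 ± 0.275 to 0.0724 ± 0.0540 FPKM in control cells (-1.01, SE 0.15, adjusted p = 1.96e-05), while its ligand Il33 rose there. In tKO cells it went from 1.16 ± 0.493 to 0.0605 ± 0.0359 FPKM (adjusted p = 2.04e-05). Il1rl1 passed the filter of 0.5 FPKM only through its GM libraries, so both tests lean on the stage that let it in. It is among the 8 and the 5 falls counted above. Myd88, the adaptor of these receptors, fell by 1.15 in control (adjusted p = 2.1e-06) and by 1.03 in tKO cells (adjusted p = 6.01e-06).

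None of 16 NF-kB factors, inhibitors and kinases passed between genotypes in GM or in DM3 in limma or voom, with 4 and 0 at an unadjusted p under 0.05. With differentiation 3 rose and 4 fell in control cells, and 4 rose and 3 fell in tKO cells, beside the same shares of all tested genes. Relb rose in both (0.96 in control, 1.28 in tKO cells), and Nfkb1 fell by 1.11 and 0.70. Of 10 NF-kB response genes other than cytokines, 2 were lower in tKO GM, Saa3 (-2.30, adjusted p = 0.0288) and C3 (-1.9603, adjusted p = 0.0104). Over all tested genes 2.06% passed in that comparison. With voom C3 passed (adjusted p = 0.0279) and Saa3 did not (0.0924). None passed in DM3 in limma or voom, with 2 at an unadjusted p under 0.05. Tnf did not exceed 2 fragments in any library.

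In control GM the order of levels was Cxcl5 (627 ± 296 FPKM, SD, n = 4), Ccl7 (189 ± 32.6), Ccl2 (173 ± 40.3), Cxcl1 (89.4 ± 18.4), Cxcl12 (35.6 ± 1.17), Il1rn (12.5 ± 4.40), Il33 (11.02 ± 2.16), Il1r1 (4.79 ± 0.861), Lif (1.31 ± 0.103) and Il6 (0.425 ± 0.141). The SDs of Ccl7 and Ccl2 overlapped, though Ccl7 was above Ccl2 in each of the 4 libraries. Those of Il1rn and Il33 overlapped too, and their order changed between libraries. In control DM3 the order began with Ccl7 (67.5 ± 32.0 FPKM), Cxcl1 (59.5 ± 57.1), Cxcl5 (54.5 ± 32.8) and Il33 (37.3 ± 14.8). Their SDs overlapped, though Ccl7 was above Il33 in each of the 4 libraries. There Il1rn, at 1.17 FPKM, was the lowest of the 10, within the spread of Il6 (1.45 ± 0.872).

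The genes whose levels ran most like Il1rn over the 16 libraries, by Pearson's r of log2(FPKM + 1) among 11831 genes, were Ces1g (0.957), Atp8b4 (0.942), Csf2rb (0.927), Osbpl10 (0.904) and BC023829 (0.879). The libraries share lines and stages, so r is a description. Csf2rb, a receptor subunit for other cytokines, stood at 5.69 ± 4.29 FPKM in control GM, 0.465 ± 0.692 in tKO GM, 0.713 ± 0.238 in control DM3 and 0.189 ± 0.1197 in tKO DM3. Ces1g, a carboxylesterase, stood at 2.69 ± 0.530, 0.264 ± 0.220, 0.763 ± 0.525 and 0.0516 ± 0.0480 FPKM in the same order.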

How the data were processed

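Poly(A) RNA of 16 libraries was sequenced on an Illumina HiSeq instrument per the labels. The authors deposited 1 table of FPKM values with a column for each library, without pooling, and with gene lengths and positions. Per the submitters' processing notes, STAR, DESeq and the mm10 build were used. Tool versions, the annotation release, the counting program and strand use are not given in the sources used here. FPKM times length gave whole fragments for 100% of values, and fragment numbers were worked out from them. The deposited columns were all matched to samples by name.

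Genes with a mean of at least 0.5 FPKM (11832) were tested on log2(FPKM + 1) with limma 3.58.1 in R 4.3.3 (trend and robust moderation, group means over all 16 libraries, no block), with Benjamini-Hochberg adjustment over all tested genes and a threshold of 0.05. Lines, and BR numbers, were compared in means models of the same libraries. The 10 genes, the gene lists and the tests were chosen with earlier results of these data known. Other genes were named by rule: those called in a comparison, up to 3 a direction between genotypes and 2 for differentiation, and the 5 most like Il1rn. Tested on simulated data of 11832 genes for the DM3 genotype comparison, 87% of 2-fold and 100% of 4-fold changes were recovered and 7.43% of calls were false. The simulated libraries were independent, with the same relative spread for every gene and no differences between lines or BR numbers. The real libraries have such differences, so these rates need not hold for them. Promoters and miR-206 are from RefSeq, 3′ UTRs from GENCODE. No gene other than themselves shared more than 0.693% of the 50-base stretches of any of the 10 genes. Alternatives were another pseudocount, filters, TPM and median-of-ratios scaling, voom on fragments, a fit of the compared libraries alone, random line effects or line averages, BR blocks, and leaving out each library or line. Python 3.11.15, numpy 2.4.6, pandas 2.3.3 and scipy 1.17.1 were used.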

Additional observations from a re-analysis of the deposited data

Results flagged for a closer look

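Each of the 10 genes was checked in each of the 4 groups for a library far from the other 3 (Dixon's test), and 2 of 40 sets had one. Chance gives about 1 in 20. Ccl2 in tKO DM3 was low in clone 2 BR1, at 3.72 FPKM against 12.5 to 15.5 in the other libraries. Il33 in control GM was high in population 2 BR1, at 14.3 FPKM against 9.78 to 10.2.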

How the results depend on the processing

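Of the 10 genes, 2 passed between genotypes in DM3 in the fit reported, and 0 did without a filter, with only the compared libraries, with line averages, or without control population 1, control population 2 or tKO clone 1. Leaving out 1 library gave 0 to 2. For differentiation of control cells the count of 8 became 5 without control population 1 or 2. Between tKO clones the count of 2 became 0 with only the compared libraries and 1 to 2 without single libraries. For BR2 against BR1 in DM3 the count of 4 became 1 without a filter or with median-of-ratios scaling, and 0 to 4 without single libraries. The causes were not tested.

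Same-numbered BR libraries of the genotypes deviated together in part (mean r 0.25 in GM and 0.19 in DM3), and the labels state no pairing. For libraries with different numbers the means were -0.25 and -0.19. In GM the ranges were apart, 0.0955 to 0.452 for the same number and -0.419 to -0.0558 for different numbers. In DM3 they overlapped, -0.22 to 0.558 and -0.456 to 0.338. Deviations were taken from group means, so the 2 kinds of mean mirror each other. With the BR number as a replicate block the DM3 genotype count was 2, and 3 with the block within each stage. Under the within-stage block the clone count was 4. The within-stage block also gave Il1rn between genotypes in DM3 an adjusted p of 0.0247, Cxcl1 with differentiation of control cells -1.71 (adjusted p = 0.0337) and Il33 there 1.38 (adjusted p = 0.104). The block gave Il6 with differentiation of tKO cells an adjusted p of 0.0375. Other counts with a block stayed within 1 of those reported.

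DM3 genotype differences that did not pass changed sign in a few fits. Without single libraries, Lif ran from -0.197 to 0.0406, Cxcl1 from -0.495 to 0.682, Cxcl5 from -0.424 to 0.178 and Cxcl12 from -0.371 to 0.0341. Without population 2 Lif was 0.0864, without clone 1 it was 0.125 and Cxcl1 was -0.266, and without clone 2 Cxcl12 was 0.13. The change of Il33 with differentiation of tKO cells ran from -0.156 to 0.989 without single libraries and was -0.43 without clone 2. Counting error is largest for Il6 in GM (0 to 20 fragments) and for Il1rn in tKO cells.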

Other observations

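Of 26 other tested genes in the lists of cytokines and chemokines, 15 passed with differentiation in control cells, where 61.5% of all tested genes did, and 10 in tKO cells, where 60.9% did. Il18, another cytokine of the interleukin-1 family, rose in control cells (1.202, SE 0.21, adjusted p = 0.000113) and in tKO cells (1.59, adjusted p = 7.07e-06). The inflammatory caspases rose beside it, Casp4 by 1.23 and 2.40 and Casp1 by 0.42 and 0.93 in control and tKO cells, and these were 2 of 3 tested genes of the inflammasome list. Tgfb2 rose by 1.71 and 1.40, and Tgfb3 by 1.75 and 1.59. Clcf1, a cytokine of the IL-6 family, fell by 0.79 and 1.73, and Ppbp, a platelet chemokine, fell by 1.90 and 1.79. Between genotypes in DM3, Il17rc, a subunit of the IL-17 receptor, was higher in tKO cells (0.65, SE 0.14, adjusted p = 0.014), 1 of 16 tested genes of the list of TNF and other cytokines. Over all tested genes 3.38% passed in that comparison. None of the other tested IL-1 family ligands (2), IL-6 family cytokines (2), CC chemokines (4) or CXC and CX3C chemokines (2) passed between genotypes at either stage in limma or voom, with 1 of each list in GM, and in DM3 2 of the CC chemokines, at an unadjusted p under 0.05.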
